A study of Drosophila melanogaster with 24 samples.

Results

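The wing of the E93 mutant fly was followed from the third larval instar (L3) to 24 h after puparium formation with maps of accessible chromatin. The members were all peaks in the mutant L3 list (28216 peaks) and in the mutant 24 h list (26239 peaks), 54455 of the 183658 peaks in the 7 peak lists of the series. A mutant L3 peak that overlapped no mutant 24 h peak by at least 1 bp was called closed, a mutant 24 h peak that overlapped no mutant L3 peak was called opened, and every other peak was called kept. The words describe presence in a list and not a measured loss or gain of signal. The series holds 24 samples from Drosophila melanogaster wings. Both mutant groups carried E93-4 over the deficiency Df(3R)93FX2, with 2 samples at L3 and 2 samples at 24 h, and the labels name no treatment. The wild-type groups came from w1118/y,w, hs-FLP; + ; +, with 3 samples at each of L3 and 24 h. Another pair of lists was used as outside readouts, the mutant at 44 h (2 samples) and a ChIP-seq map of E93 itself at 24 h from flies of the genotype yw/+; + ; Mi{MIC}Eip93F/+ (2 samples).

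E93 (Eip93F) encodes a DNA-binding transcription factor that the steroid hormone ecdysone induces during metamorphosis, and it is known for turning larval tissues towards their adult programmes. The wing starts as a folded epithelial disc in the larva, everts after puparium formation and then forms the adult blade, while successive ecdysone pulses switch sets of regulatory elements on and off. FAIRE-seq recovers the DNA that is left unbound after crosslinking and phenol extraction, so a FAIRE peak marks a nucleosome-depleted stretch such as a promoter or an enhancer. In ChIP-seq of the E93-GFSTF protein an antibody against its GFP tag pulls down the DNA it occupies. Each FAIRE sample was made from at least 40 wings of staged females, so a peak is an average over all cell types of the wing. Fewer cells with an open site and less opening per cell cannot be told apart. The ChIP-seq wings came from both sexes. Every cell of the mutant wing carried the allele combination from the start of development.

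The authors called peaks on pooled replicates, so each condition gave 1 list, no replicate error exists and no test across samples could be made. The interval beside a share is the exact 95% interval of Clopper and Pearson and speaks of counting error alone. Pileup, the read coverage at a peak's summit, is on each list's own scale. The background pileup, the coverage the caller took as the floor away from peaks, was 5.67 in the mutant L3 list and 4.87 in the mutant 24 h list, against 9.97 in the wild-type L3 list and 10.56 in the wild-type 24 h list, whose pileups were scaled, so its own coverage is not shown by that value. For this reason peaks were ranked within their own list. The part of coverage in each share below was not tested. All 28216 peak names in the mutant L3 list give 0 h after puparium formation in place of L3; the labels were followed, and every closed and opened call rests on that label. Peak names at wild-type L3 speak of a top selection, yet that list was the longest of those used here (39525 peaks).

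The genotype was examined through the mutant to wild-type ratio of pileup at matched peaks in windows of 500 kb, centred on the median of all matched peaks. At L3 the window on 3R from 17500001 to 18000000 was the lowest of 232, with a median log2 ratio of -0.48 over 74 peaks, and the next window stood at -0.12. At 24 h the same window was the fourth lowest of 230, at -0.26 over 82 peaks, and the lowest stood at -0.39 over 33 peaks. At L3 the ratios of single windows otherwise lay close together, with an interquartile range of -0.02 to 0.03. The position of the deficiency in the coordinates of these lists was not looked up, so the window is given by position alone.

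More of the mutant L3 list closed than of the mutant 24 h list opened. Of the 28216 mutant L3 peaks 9196 closed, which is 32.6% (interval 32.0 to 33.1). Of the 26239 mutant 24 h peaks 6690 opened, which is 25.5% (24.97 to 26.03). The order of the shares turned round under a stricter threshold: with only the peaks of a −log10 q from 10 upwards (q being the caller's p-value per peak adjusted over the genome) in every list 21.4% closed and 24.8% opened, and with that limit in the described list alone 7.35% and 8.33%. With an overlap of 50% of both peaks required the order did not turn round, with 45.5% closed and 41.4% opened. The wild-type lists, given as the background, held 18636 of 39525 L3 peaks (47.1%) with no 24 h peak and 8678 of 29731 24 h peaks (29.2%) with no L3 peak. Merged over both stages, the mutant lists gave 34300 regions. The 18414 regions with a peak at both stages made up 53.7% of the regions and 72.5% of the covered length (8.39 Mb), whereas the L3 regions without a 24 h peak made up 15.5% (1.79 Mb) and the 24 h regions without an L3 peak 11.95% (1.38 Mb). Most of the covered length therefore lay in merged regions with a peak at both stages. Such a region counts in full, including any part listed at 1 stage only.

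Closed and opened peaks were weak peaks. The share of closed peaks rose from 0.213% in the strongest decile of the L3 list by pileup (6 of 2822 peaks) to 71.9% in the weakest (2028 of 2821). The share of opened peaks rose from 0.838% in the strongest decile of the 24 h list (22 of 2624) to 59.9% in the weakest (1570 of 2623). Both curves climbed at every step. They crossed near the top of the list, as the plot of shares by decile shows: in each of the 3 strongest deciles a larger share opened than closed, and from the fourth decile on a larger share closed than opened.

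**Figure D1:**
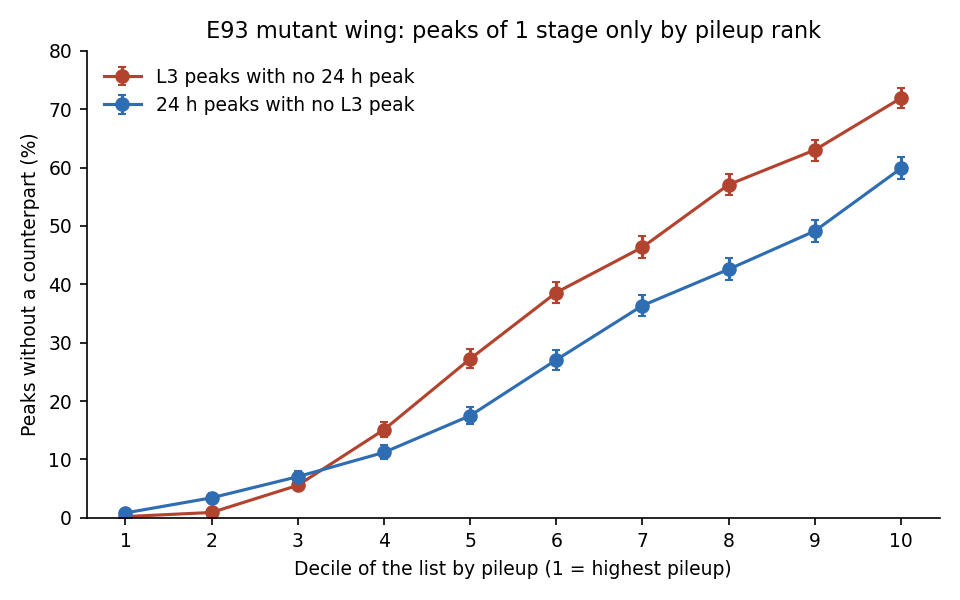
Share of peaks without a counterpart at the other stage (%, vertical axis) in each decile of the list by pileup (horizontal axis, 1 = highest pileup), for mutant L3 peaks (closed, red) and mutant 24 h peaks (opened, blue), with exact 95% intervals that cover counting error only. Closed peaks run from 0.213% to 71.9% and opened peaks from 0.838% to 59.9%.

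Of the strongest quartile 87 of 7054 L3 peaks closed (1.23%, interval 0.989 to 1.52) and 187 of 6560 24 h peaks opened (2.85%, 2.46 to 3.28). Closed peaks had a median pileup of 21 (interquartile range 18 to 25) against 37 (25 to 65) for kept L3 peaks. Opened peaks had a median of 20 (17 to 25) against 36 (24 to 65) for kept 24 h peaks. By rank the opened peaks were thus the more numerous in the strongest quartile. A pileup of 50 or more, on each list's own scale, was reached by 84 closed beside 6923 kept L3 peaks. In the 24 h list 244 opened beside 6988 kept peaks reached it. A pileup of 100 or more was reached by 1 closed beside 1744 kept L3 peaks, and by 16 opened beside 1879 kept 24 h peaks. The strongest closed peak ranked 643 in its list and the strongest opened peak 860. Of all closed peaks 50.6% lay in the weakest quartile of the L3 list, and of all opened peaks 51.7% lay in the weakest quartile of the 24 h list.

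Closed and opened peaks were also short. The median length was 166 bp (interquartile range 138 to 219) for closed peaks and 312 bp (203 to 490) for kept L3 peaks. It was 169 bp (139 to 231) for opened peaks and 292 bp (195 to 456) for kept 24 h peaks. The shortest listed peak was 125 bp, and lengths of 125 to 150 bp were found for 37.7% of closed against 9.18% of kept L3 peaks, and for 36.8% of opened against 10.5% of kept 24 h peaks. Peaks of a −log10 q from 10 upwards were longer, with medians of 253 bp for closed and 294 bp for opened peaks. The difference narrowed within quartiles of pileup. In the strongest quartile the closed peaks had a median of 440 bp against 514 bp for kept peaks, with median pileups of 55 and 77, and in the weakest quartile 156 against 174 bp. Opened peaks had medians of 466 against 493 bp in the strongest quartile and 151 against 168 bp in the weakest. At a pileup of 40 to 59 the 317 opened peaks, at 355 bp, were no shorter than the kept peaks at 345 bp, while the 241 closed peaks had a median of 340 bp against 365 bp. At a pileup of 60 to 99 the changed peaks were the longer ones, with 520 against 492 bp for 22 closed peaks and 476.5 against 458 bp for 114 opened peaks. At a pileup of 20 to 24 they were shorter, with 158 against 185 bp for closed and 159 against 183 bp for opened peaks.

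**Figure D2:**
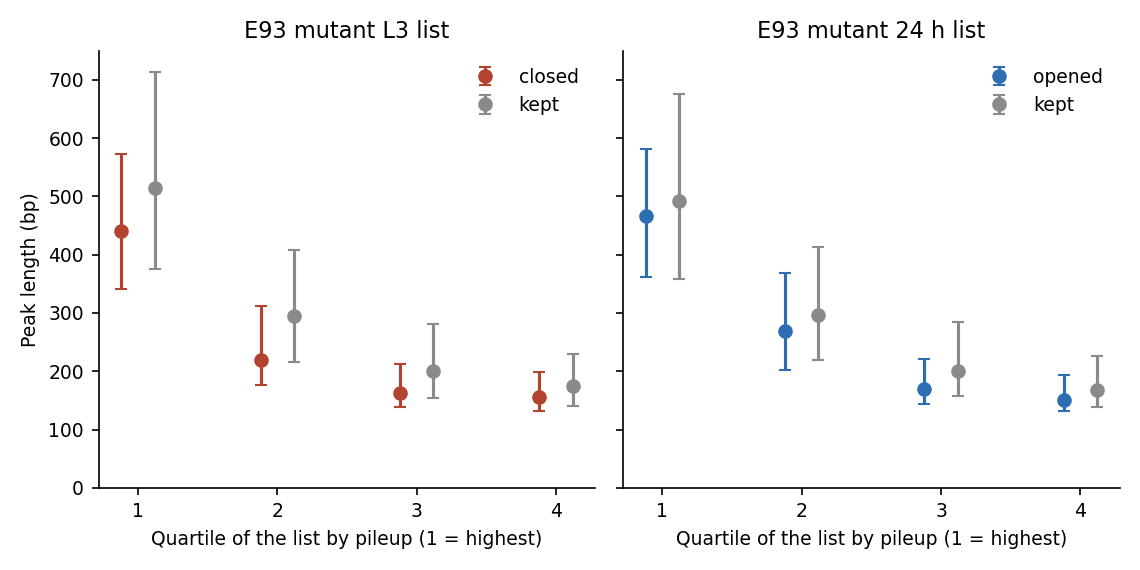
Length of peaks (bp, vertical axis) in each quartile of the list by pileup (horizontal axis, 1 = highest) for closed and kept mutant L3 peaks (left) and opened and kept mutant 24 h peaks (right). Points are medians and bars run from the lower to the upper quartile of length; in the strongest quartile medians were 440 and 514 bp on the left and 466 and 493 bp on the right.

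The shares of the large arms lay within a few percentage points of each other. Among the large arms the share of L3 peaks that closed ran from 31.2% on 2R (1697 of 5443) to 34.3% on 2L (1751 of 5109). The share of 24 h peaks that opened ran from 24.6% on 2R (1252 of 5096) to 26.1% on 2L (1216 of 4661). On the small chromosome 4, 27 of 77 L3 peaks closed (35.1%, interval 24.5 to 46.8) and 24 of 74 24 h peaks opened (32.4%, 22.0 to 44.3), and both intervals hold the values of the large arms. The order was the same at both stages for the extreme arms, with 2L highest and 2R lowest. Among peaks of the stronger 50% of each list the large arms ranged from 8.90% on 2R to 10.9% on 2L for closed peaks and from 6.52% on 2R to 9.22% on 2L for opened peaks, beside 7 of 45 closed and 2 of 33 opened peaks on chromosome 4. The intervals of 2L and 2R lay apart for closed peaks of the full list (33.0 to 35.6 and 29.9 to 32.4). They also lay apart for opened peaks of the stronger 50% (8.05 to 10.5 and 5.59 to 7.55), and overlapped in the remaining comparisons.

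In windows along the arms, which held far fewer peaks than a large arm, the shares ranged more widely. Counting error is larger in such windows, and its part in the range was not tested. In windows of 1 Mb with at least 50 peaks the median closed share was 32.6% over 116 windows. The lowest was 25.6% on 3R from 17000001 to 18000000 (62 of 242 peaks) and the highest 57.6% on X from 22000001 to 23000000 (34 of 59, interval 44.1 to 70.4). The lowest closed window contains the 500 kb window whose mutant pileup was lowest against the wild type at L3, and the part of that lower pileup was not tested. The median opened share was 26.1% over 115 windows. Its extremes lay side by side on 3R, where 13.8% of peaks opened from 21000001 to 22000000 (27 of 196, interval 9.28 to 19.4) and 35.8% from 22000001 to 23000000 (73 of 204, interval 29.2 to 42.8). Peak strength moved with these extremes, and its part in them was not tested: 57.9% of the peaks in the lowest closed window and 37.3% in the highest were in the stronger 50% of the L3 list, and 57.1% and 46.6% in the lowest and highest opened windows were in the stronger 50% of the 24 h list. Many changed peaks had a changed peak as the next in the list, where 32.6% of all L3 peaks closed and 25.5% of all 24 h peaks opened. Shares of this size place some changed peaks side by side in any order, and a surplus of runs was not tested. Of the 9196 closed peaks 3302 (35.9%) stood alone between kept peaks, and 180 of the 5410 runs of closed peaks held 5 or more. Of the 6690 opened peaks 3011 (45.01%) stood alone, and 76 of 4436 runs held 5 or more.

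The longest run of closed peaks held 16 peaks on 3R from 3350582 to 3574305, a sparse stretch of 224 kb with pileups of 15 to 33, and 11 of the 16 were also closed between the wild-type lists. The longest run of opened peaks held 10 peaks within 15.6 kb on 3L from 16253003 to 16268611, with pileups of 18 to 31. Of these 10 peaks 2 were also opened in the wild type, 1 had a peak at both wild-type stages, 4 lay where the wild type had an L3 peak only, and 3 had no wild-type peak. A shorter run stood out for its outside readouts and was singled out after its values were seen. It held 7 opened peaks within 14.6 kb on 3R from 17732160 to 17746738, with pileups of 25 to 50. Of these 7 peaks 4 were also opened in the wild type, 3 had a peak at both wild-type stages, 6 overlapped an E93 ChIP-seq peak and 5 were still listed in the mutant at 44 h. The run lies inside the 500 kb window whose mutant pileup was lowest against the wild type at L3, and the part of that lower pileup in its L3 absence was not tested.

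Close to 50% of the closings were also found between the wild-type lists. Of the 9196 closed peaks 4515 overlapped a wild-type L3 peak and no wild-type 24 h peak (49.1%, interval 48.1 to 50.1). A further 2043 (22.2%) overlapped wild-type peaks at both stages, 379 (4.12%) overlapped a wild-type 24 h peak only, and 2259 (24.6%) overlapped none. Kept L3 peaks were distributed differently, with 13.0% at L3 only, 82.5% at both stages, 2.37% at 24 h only and 2.12% at neither. The share closed in both genotypes was 58.6% in the strongest quartile (51 of 87) and 48.7% in the weakest, whereas among kept peaks a wild-type peak at L3 only was found at 2.87% in the strongest quartile and 33.2% in the weakest. Closed and kept peaks thus stood far apart among strong peaks and closer together among weak ones. With every list limited to its 26239 peaks of highest −log10 p, 35.8% of closings were shared. The share with no wild-type peak moved with pileup rank, with 0 of 87 in the strongest quartile (exact upper limit 4.15%) and 32.7% in the weakest.

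A smaller share of all openings than of all closings was found in the wild type, and that share moved with peak strength. Of the 6690 opened peaks 1915 overlapped a wild-type 24 h peak and no wild-type L3 peak (28.6%, interval 27.5 to 29.7). Another 1632 (24.4%) overlapped wild-type peaks at both stages, 1589 (23.8%) overlapped a wild-type L3 peak only, and 1554 (23.2%) overlapped none. Among kept 24 h peaks 2.27% overlapped a wild-type 24 h peak only, 82.1% wild-type peaks at both stages, 13.4% an L3 peak only, and 430 of 19549 overlapped none. The shared openings fell from 55.6% in the strongest quartile (104 of 187) to 17.7% in the weakest (613 of 3456), beside 0.345% and 3.09% of kept peaks. Over all openings the shared part was 45.9% where every list was limited to a −log10 q from 10 upwards, and 32.3% at equal list sizes, where the gap to the closings (35.8%) was small. Closings and openings of the strongest quartile were shared to a like extent (58.6% and 55.6%). In the opposite direction, openings at a place where the wild type had only an L3 peak went from 0 of 187 to 35.4%. That last class was also common among weak kept peaks, of which 40.3% in the weakest quartile of the 24 h list overlapped a wild-type L3 peak only, and the wild-type L3 list was the longer of the wild-type pair. By chromosome the shared part ranged over the large arms from 47.0% on 3R to 50.8% on 3L for closed peaks and from 25.6% on 2R to 31.1% on 3L for opened peaks.

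**Figure D3:**
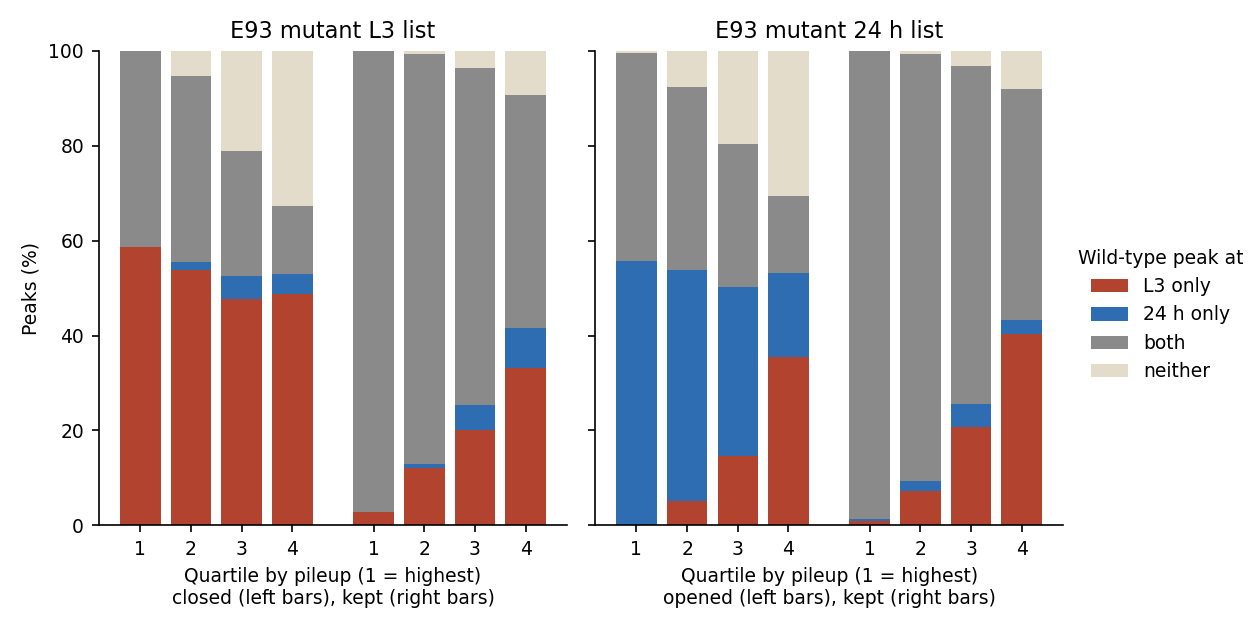
Share of mutant peaks (%, vertical axis) with a wild-type peak at L3 only (red), at 24 h only (blue), at both stages (grey) or at neither (beige), by quartile of pileup (horizontal axis, 1 = highest), for closed and kept peaks of the mutant L3 list (left) and opened and kept peaks of the mutant 24 h list (right). In the strongest quartile 58.6% of closed peaks were also closed and 55.6% of opened peaks also opened in the wild type, and all but 1 of the remaining 36 and 83 had wild-type peaks at both stages.

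A site listed at both wild-type stages can still change rank there. The 36 closed peaks of the strongest quartile with wild-type peaks at both stages had a median wild-type pileup percentile of 84.4 at L3 and 28.6 at 24 h, and 35 of the 36 were lower at 24 h. Kept L3 peaks of that quartile with wild-type peaks at both stages had medians of 91.4 and 84.8, and 79.8% of them were lower at 24 h. The 82 opened peaks of the strongest quartile in the same class had medians of 41.0 at L3 and 81.8 at 24 h, and 75 of the 82 were higher at 24 h. Kept 24 h peaks beside them had medians of 91.9 and 87.8, and 30.2% were higher at 24 h. Counting as shared either the same call or a wild-type move of more than 25 percentile points in the same direction, 84 of the 87 strong closings (96.6%, interval 90.3 to 99.3) and 164 of the 187 strong openings (87.7%, 82.1 to 92.0) were found in both genotypes. The same count gave 22.1% of kept L3 peaks and 2.93% of kept 24 h peaks in that quartile. Most of these kept 24 h peaks stood too high in the wild-type L3 list (median percentile 91.9) to gain more than 25 points. The 2.93% is therefore not a like comparison for the openings, whose median there was 41.0. In the weakest quartile the same count gave 53.6% of closings (2495 of 4655) against 46.0% of kept L3 peaks, and 20.6% of openings (711 of 3456) against 6.16% of kept 24 h peaks. Weak closings were thus little apart from weak kept peaks by this measure. The percentiles are of whole wild-type lists of unlike length (39525 and 29731 peaks). Over all quartiles 70.1% of kept L3 peaks with both wild-type stages were lower at 24 h, and 28.6% of such kept 24 h peaks were higher. Closings and openings are therefore not on equal terms in this count.

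Read from the wild-type side, the shared changes were a smaller share of longer lists. Of the 18636 wild-type closings 4343 (23.3%) were also closed in the mutant, 2428 (13.0%) had mutant peaks at both stages and 10358 (55.6%) had no mutant peak, while of those with a −log10 q from 10 upwards 41.3% were also closed. Of the 8678 wild-type openings 1747 (20.1%) were also opened in the mutant, 426 (4.91%) had mutant peaks at both stages and 6140 (70.8%) had none. Among wild-type peaks kept between the stages 9.47% of the L3 list were closed and 7.31% of the 24 h list were opened in the mutant. Among the 618 wild-type closings of the strongest quartile 192 (31.1%, interval 27.4 to 34.9) closed in the mutant and 417 (67.5%, 63.6 to 71.2) had mutant peaks at both stages, against 1.86% and 97.8% of kept wild-type L3 peaks of that quartile. Among the 505 strong wild-type openings 296 (58.6%, 54.2 to 62.9) opened in the mutant, 51 (10.1%, 7.61 to 13.1) had mutant peaks at both stages and 146 (28.9%, 24.99 to 33.08) had no mutant peak. Of kept wild-type 24 h peaks of that quartile 3.52% opened in the mutant and 94.99% had mutant peaks at both stages. Thus a mutant peak listed at both stages was found at more of the strong wild-type closings than of the strong wild-type openings.

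The strongest closing of the mutant lay on 2L from 6086651 to 6087590, where a mutant L3 peak with a pileup of 122 (rank 643) had no peak at 24 h or at 44 h. The wild-type L3 peak there had a pileup of 160 (rank 675) and no wild-type 24 h peak either. The next closings shared with the wild type lay on X from 2858552 to 2859196 (mutant L3 pileup 97, wild-type L3 pileup 123) and on 3R from 5527310 to 5527808 (88 and 110). Both of the latter had a weak mutant peak again at 44 h, with pileups of 13 and 22. No closing named here overlapped an E93 ChIP-seq peak.

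The strongest closings with peaks at both wild-type stages were sites of much lower wild-type rank at 24 h. On 3R from 14304827 to 14305374 a mutant L3 pileup of 89 went with no 24 h peak, beside wild-type pileups of 130 at L3 and 34.7 at 24 h. On 3R from 24894828 to 24895663 the mutant L3 pileup was 86, and the wild-type pileups were 102 and 28.4. On 2L from 6083128 to 6083454 it was 85, and the wild-type pileups were 126 and 44. In each case the wild-type peak moved from the strongest quartile of its L3 list to the lower 50% of its 24 h list. Closings with no wild-type peak were far weaker, the strongest being on X from 11694029 to 11694195 (mutant L3 pileup 41), on 2L from 526119 to 526268 (38) and on X from 3575163 to 3575360 (36), each under 200 bp long.

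Of the regions named on 2L, 3 lay within 1 stretch from 6081184 to 6089389, which was examined after their positions were seen. These 8.21 kb held 7 mutant L3 peaks, of which 4 closed and 3 were kept, and 8 wild-type L3 peaks, of which 4 closed and 4 were kept. The kept mutant peaks were weaker at 24 h: pileup was 105 at L3 and 36 at 24 h at the left edge, 125 and 23 in the peak from 6082233 to 6082715, and 125 and 86 in the peak from 6087717 to 6088936. The last was the only one with an E93 ChIP-seq peak, which had a pileup of 57.7 and lay from 6088304 to 6088719. In the wild type the same sites had pileups of 125 and 48.1, 153 and 28.4, and 168 and 101.9, on unlike scales at the stages. Their wild-type ranks were 2366 and 15832, 926 and 27034, and 403 and 3310, in lists of 39525 and 29731 peaks. Their mutant ranks were 1414 and 10263, 533 and 17372, and 538 and 2926, in lists of 28216 and 26239 peaks. These kept sites thus ranked lower at 24 h in both genotypes.

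The strongest openings shared with the wild type were sites of E93 occupancy. They lay on 2L from 18459820 to 18460361, on 3L from 5936125 to 5937033 and on 3L from 21889120 to 21889776. Their mutant 24 h pileups were 109, 109 and 107, and their wild-type 24 h pileups were 108, 122 and 126. Each overlapped an E93 ChIP-seq peak, with pileups of 62.6, 67.6 and 83.3, and each was listed in the mutant at 44 h, with pileups of 78, 73 and 107. The last site ranked 119 of 29731 in the wild-type 24 h list and 1455 of 26239 in the mutant 24 h list.

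Openings at sites with both wild-type stages lay on 3R from 25125074 to 25126610 (mutant 24 h pileup 118, the strongest opening of all), on 2R from 17187419 to 17188280 (116) and on 3R from 15120874 to 15121332 (112). Their wild-type pileups were 46 at L3 and 123 at 24 h, 30 and 113, and 31 and 118. The wild-type L3 peaks lay at percentiles 67.0, 31.4 and 35.5 of their list, below their places at 24 h, and the site on 2R was the one without a ChIP-seq peak. The ChIP-seq pileups at the others were 87.8 and 47.3. Openings with no wild-type peak lay on 3R from 22269402 to 22269996 (mutant 24 h pileup 76), on X from 14043282 to 14043898 (50) and on 2R from 4241341 to 4241541 (49). The first of these was the only opening of the strongest quartile with no wild-type peak. It overlapped an E93 ChIP-seq peak with a pileup of 40.9, while the other two overlapped none.

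Kept peaks could be compared by rank. Of the regions with exactly 1 peak at each mutant stage, 16835 in number, 1534 (9.11%) gained more than 25 percentile points of pileup from L3 to 24 h and 1475 (8.76%) lost more than 25. The wild-type pair gave 17901 such regions, of which 2715 (15.2%) gained and 2513 (14.0%) lost that much. The spread of the shift was 19.3 points (SD over regions) in the mutant and 25.1 in the wild type. Mutant ranks at the stages were accordingly closer to each other, with a Spearman rho of 0.78 over 16835 regions against 0.62 over 17901 in the wild type. Regions share their libraries and are not replicates, and 2 pooled samples stood behind each mutant list against 3 behind each wild-type list.

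The best ranked kept regions were chosen for a high place in both mutant lists and are given as a description. The region on 2R from 3132454 to 3134756 was first in both mutant lists, with a pileup of 211 at each stage, and was first in both wild-type lists as well. On 3L from 19033881 to 19036617 the mutant pileup was 159 at L3 and 163 at 24 h, and on 3L from 282142 to 282765 it was 157 and 158. The largest gains were on 2R from 5297840 to 5298469, where pileup was 17 at L3 and 116 at 24 h (93.2 points), on 3L from 22842001 to 22842462 (19 and 109, 87.0 points) and on 2R from 10201303 to 10201664 (19 and 108, 86.7 points). All of these gains overlapped an E93 ChIP-seq peak, with ChIP-seq pileups of 72.5, 33.5 and 29.1 and −log10 q of 25.5, 6.04 and 2.66. Only the ChIP-seq peak at the first gain thus passed a −log10 q of 10. The first gain had wild-type FAIRE pileups of 30 and 111, whereas the last was strong at both wild-type stages (104 and 116). The largest losses were all on 2L, from 3560003 to 3560442 (77 and 15, -81.2 points), from 6082233 to 6082715 (125 and 23, -74.3 points) and from 11060162 to 11060766 (62 and 16, -71.4 points). None of these losses overlapped a ChIP-seq peak or was listed in the mutant at 44 h.

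Most of the large moves of the mutant had the same direction in the wild type. In 11365 regions there was exactly 1 peak in each of the 4 lists. Of the 1060 that gained more than 25 points in the mutant 888 (83.8%) were also higher at 24 h in the wild type, with a median wild-type shift of 28.9 points, and 589 (55.6%) gained more than 25 points there. Of the 966 that lost more than 25 points in the mutant 819 (84.8%) were lower in the wild type, with a median of -24.0 points, and 475 (49.2%) lost more than 25. Moves of more than 25 points in opposite directions were few, 22 among the mutant gains and 24 among the losses. Among all 11365 regions 47.9% were higher at 24 h in the wild type. Across these regions the shifts of the genotypes had a Pearson r of 0.53 and a Spearman rho of 0.47, as a description only, since regions of one list share its libraries. Starting from the wild type, the 1776 gaining regions had a median mutant shift of 14.9 points and the 1637 losing regions of -14.9, smaller in size than the wild-type medians of 38.7 and -37.3, on whose values these regions had been chosen. The regions chosen on mutant moves had mutant medians of 36.0 and -33.2, beside the wild-type medians of 28.9 and -24.0 given above. The plot of the shifts shows one cloud stretched along the rising diagonal.

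**Figure D4:**
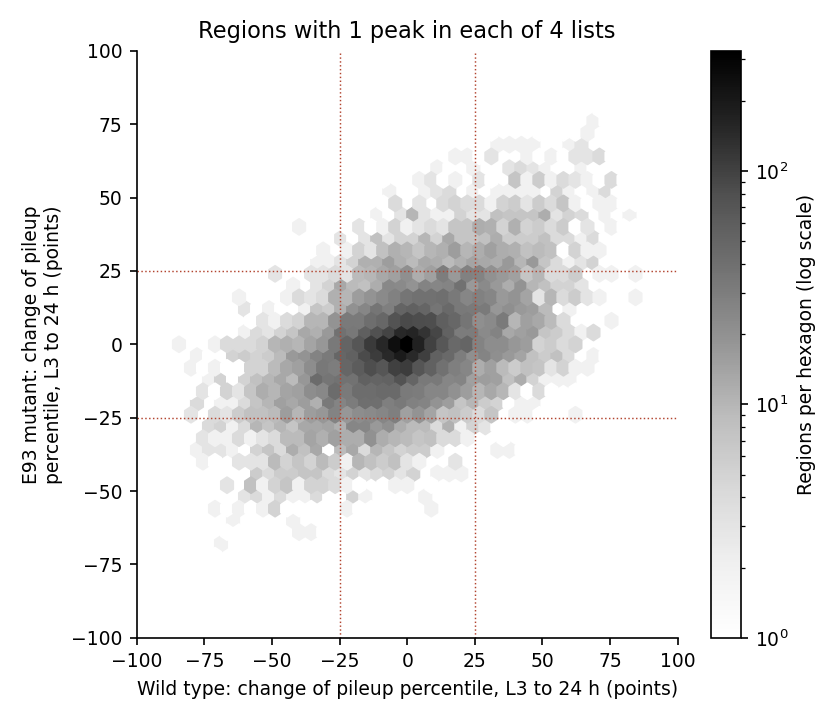
Change of pileup percentile from L3 to 24 h (points) in the wild type (horizontal axis) and in the E93 mutant (vertical axis) for 11365 regions with 1 peak in each of the 4 lists; shade gives the number of regions per hexagon on a log scale, and dotted lines mark 25 points. The cloud follows the rising diagonal, with 589 regions past 25 points up and 475 past 25 points down in both genotypes.

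E93 ChIP-seq peaks played no part in the choice of members, and closings and openings differed in their overlap. The ChIP-seq map is of 24 h, the stage at which opened peaks are listed and closed peaks by definition are not. Closings and openings are thus not on equal terms for overlap with an E93 ChIP-seq peak. Of the 9196 closed peaks 220 overlapped one (2.39%, interval 2.09 to 2.73) against 31.7% of kept L3 peaks (6024 of 19020). Of the 6690 opened peaks 957 did (14.3%, 13.5 to 15.2) against 31.0% of kept 24 h peaks (6061 of 19549). ChIP-seq overlap depends on peak strength, so the comparison was repeated by quartile. In the strongest quartile 4 of 87 closed peaks (4.60%, 1.27 to 11.4) overlapped a ChIP-seq peak against 51.1% of kept peaks (49.9 to 52.2), whereas 137 of 187 opened peaks did (73.3%, 66.3 to 79.5) against 59.7% of kept peaks (58.5 to 60.9). In the second quartile 37.9% of opened peaks (34.6 to 41.2) overlapped one against 28.3% of kept peaks (27.2 to 29.5). In the third quartile the shares were 13.6% and 10.6%, and in the weakest, which held 3456 of the 6690 openings, 5.67% of opened and 5.67% of kept peaks overlapped one. Openings thus lay above kept peaks in the 3 stronger quartiles and level with them in the weakest. Closings lay below kept peaks in every quartile, down to 1.50% against 11.8% in the weakest. By wild-type class, closed peaks overlapped a ChIP-seq peak in 0.509% (L3 only), 0.310% (neither), 7.49% (both stages) and 9.76% (24 h only). Kept L3 peaks of these classes did so in 2.67%, 3.22%, 37.3% and 20.7%. Strength was not matched within these classes. With ChIP-seq peaks limited to a −log10 q from 10 upwards the overall shares were 0.533% for closed and 5.10% for opened peaks.

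The ChIP-seq peaks at strong openings were strong as well. Their median ChIP-seq pileup was 50.3, and 66 of the 137 lay in the strongest quartile of the ChIP-seq list (48.2%), against a median of 45.4 and 40.1% at kept 24 h peaks of the strongest quartile. Openings shared with the wild type carried a ChIP-seq peak in 30.4% of cases (582 of 1915) and those with peaks at both wild-type stages in 20.7% (338 of 1632). Openings where the wild type had an L3 peak only carried one in 0.503% (8 of 1589), and openings with no wild-type peak in 1.87% (29 of 1554). Kept 24 h peaks of the same classes carried one in 20.1% (24 h only), 36.7% (both stages), 2.82% (L3 only) and 3.02% (none). The low shares where the wild type had no 24 h peak were thus seen in kept peaks too. Openings lay above kept peaks where the wild type had a 24 h peak alone, with median FAIRE pileups of 24 and 25. The classes were not matched for strength. With both wild-type stages, openings had a median FAIRE pileup of 23 and kept peaks 42, so their lower share there is not a like comparison. The ChIP-seq and the wild-type 24 h wings were of the same stage and both carried E93. Among regions with 1 peak in each of the 4 lists, ChIP-seq overlap was 57.2% (54.1 to 60.2) for mutant gains of more than 25 points, 20.2% (17.7 to 22.9) for mutant losses and 33.9% for the other regions. Of all 8477 ChIP-seq peaks 74.2% lay at mutant peaks of both stages, 12.02% (1019) at a mutant 24 h peak only, 2.65% (225) at an L3 peak only and 11.1% at none, so most places that E93 occupied in its presence were accessible in the mutant at both stages.

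**Figure D5:**
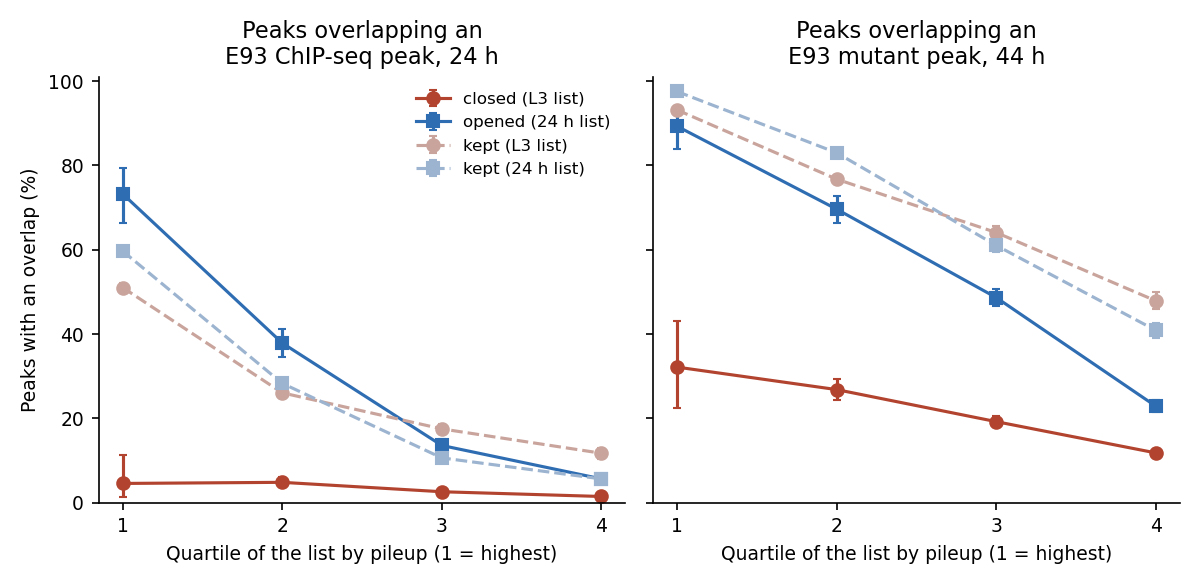
Share of closed, opened and kept peaks (%, vertical axis) that overlapped an E93 ChIP-seq peak at 24 h (left) or a mutant FAIRE peak at 44 h (right), by quartile of pileup (horizontal axis, 1 = highest), with exact 95% intervals that cover counting error only. In the strongest quartile 73.3% of opened and 4.60% of closed peaks overlapped a ChIP-seq peak, and 89.3% and 32.2% overlapped a mutant 44 h peak.

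The mutant 44 h list gave a later stage of the same genotype. Of the closed peaks 1535 (16.7%, interval 15.9 to 17.5) overlapped a mutant 44 h peak against 76.5% of kept L3 peaks, and of the opened peaks 2623 (39.2%, 38.0 to 40.4) did against 76.1% of kept 24 h peaks. In the strongest quartile 28 of 87 closed peaks (32.2%, 22.6 to 43.1) were listed again at 44 h, against 93.2% of kept peaks, and 167 of 187 opened peaks (89.3%, 84.0 to 93.3) were still listed, against 97.5% of kept peaks. Strong openings thus mostly persisted to 44 h, and strong closings mostly remained unlisted. Among peaks of a −log10 q from 10 upwards, 28.8% of closed and 71.8% of opened peaks were listed at 44 h. Openings shared with the wild type were listed at 44 h in 53.6% of cases, those with both wild-type stages in 60.3%, those where the wild type had an L3 peak only in 20.2% and those with no wild-type peak in 18.8%. Kept 24 h peaks of these classes were listed in 59.1%, 83.8%, 40.1% and 27.0%. The mutant 44 h list was the shallowest used here, with a background pileup of 2.91 and 22786 peaks, and the part of its depth in these shares was not tested.

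The line between kept and changed peaks was drawn at an overlap of 1 bp. Few members lay within 25 bp of overlap or a gap of 100 bp, yet wider rules moved the shares. With an overlap of 50% of both peaks required, 45.5% closed and 41.4% opened. With gaps of up to 500 bp counted as shared, 23.1% closed and 16.9% opened. Kept peaks with an overlap of at most 25 bp numbered 65 at L3 and 62 at 24 h, with median pileups of 18 and 17. Changed peaks with a peak of the other stage less than 100 bp away numbered 428 among the closed and 379 among the opened, with median pileups of 21 and 19. The median distance from a closed peak to the nearest 24 h peak was 1072 bp, and from an opened peak to the nearest L3 peak 897 bp. Within 500 bp lay 29.2% of closed and 33.8% of opened peaks, while 6.26% and 2.72% had no peak of the other stage within 10 kb.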

How the data were processed

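FAIRE-seq wings of the E93 mutant and the wild type at L3 and 24 h, mutant wings at 44 h and E93-GFSTF ChIP-seq wings at 24 h were used, 6 of the 7 lists. The authors removed PCR duplicates, pooled replicates and called peaks; the submitters' processing notes name Bowtie2 2.2.8, SAMtools 1.3.1, Picard 2.2.4, bedtools 2.25.0, MACS2 and genome build dm3, with no role or order. The deposited pileup is a coverage signal at the summit, and the wild-type 24 h and ChIP-seq pileups are not whole numbers, so they were scaled before deposit. The deposited fold enrichment is a ratio to local background, and the deposited −log10 p and −log10 q are per peak. The lowest deposited −log10 q was between 1.31 and 1.33 in the lists used.

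From these lists, peaks sharing 1 bp or more were matched, ranked by pileup (ties share a percentile) and split into quartiles and deciles with pandas 2.3.3, numpy 2.4.6 and scipy 1.17.1. Rank shifts at kept peaks used regions with exactly 1 peak in each list. The wild-type moves at mutant peaks with both wild-type stages used all such peaks and percentiles of the whole wild-type lists. The background pileup is the commonest local background recovered from pileup and fold enrichment. Matching was checked on 600 simulated peaks against a direct search, with 0 disagreements in 4 matching functions. The members and lists were chosen with earlier results of these data known. Regions named were the 3 highest pileups of each class of closed and opened peaks by wild-type status (ties by −log10 p), the 3 kept regions with the best worst rank and the 3 largest gains and losses of rank, except where the text says otherwise. Alternatives were equal list sizes, a minimum −log10 q of 10, other matching rules, large arms only and other rankings. No gene or sequence was assigned, since no genome or gene table of build dm3 was used here. The wild-type 44 h list, RNA-seq and genomic DNA reads were not used here.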

Additional observations from a re-analysis of the deposited data

How the results depend on the processing

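No paired analysis was possible because replicates were pooled into 1 list per condition, and no replicate could be left out. Of 44 values under alternatives 33 moved by more than their counting interval. Values are given in the order closed share, closed also in the wild type, opened share and opened also in the wild type. They were 21.4, 54.7, 24.8 and 45.9% with a minimum −log10 q of 10 in every list. With that limit in the described list only they were 7.35, 55.2, 8.33 and 48.5%. With every list limited to its 26239 peaks of highest −log10 p they were 29.6, 35.8, 27.4 and 32.3%. An overlap of 50% of both peaks gave 45.5, 41.8, 41.4 and 25.2%. Gaps of up to 500 bp counted as shared gave 23.1, 50.5, 16.9 and 26.9%. With summits at most 250 bp apart the first 3 were 35.3, 47.4 and 30.4%. With that minimum in the described list, median lengths were 253 bp (closed) and 294 bp (opened), and 28.8% of closed and 71.8% of opened peaks were listed in the mutant at 44 h. ChIP-seq overlap was 0.533% (closed) and 5.10% (opened) with that minimum for ChIP-seq peaks, and 1.11% and 8.80% with an overlap of 50%. Of wild-type closings and openings past that minimum, 41.3% and 29.4% were also found in the mutant. The remaining 11 values, among them large arms only and ranking by −log10 p or fold enrichment, stayed within the interval. Opened exceeded closed peaks under both settings with that minimum; the cause was not tested. Most closed and opened calls were weak peaks, and the part of depth in them was not tested.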
